A study of Saccharomyces cerevisiae with 3 samples.

Results

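The cytosolic ribosomal protein genes of *Saccharomyces cerevisiae* were followed in wild type (WT) cells and in cells lacking *SPT3* (*spt3Δ*) or *SPT8* (*spt8Δ*). Members were chosen by name alone, as genes annotated on the array as *RPL* or *RPS* with a number and, where present, an A or B suffix, together with the P-stalk genes *RPP0*, *RPP1A*, *RPP1B*, *RPP2A* and *RPP2B*. This gave 127 of the 5449 *S. cerevisiae* genes measured, 70 of the large subunit, 5 of the P-stalk and 52 of the small subunit. Spt3 and Spt8 belong to the SAGA coactivator, and the study asked which chromosomal regions depend on the contact of SAGA with the TATA-binding protein. Cells of all 3 strains were grown in YPD at 30 °C to an optical density of 0.7, each deletion was made with a *KanMX* cassette, and total RNA was hybridized to Affymetrix Yeast Genome 2.0 arrays. Each strain was measured on 1 array without replicates. No test between strains could therefore be made, and the number of arrays limits the precision. The labels give BY4742 as the background of all 3 strains.

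Ribosomal proteins bind ribosomal RNA to form the small subunit, which decodes mRNA, and the large subunit, which joins amino acids. Most yeast ribosomal proteins are encoded by a pair of near-identical genes, called A and B copies, and their transcripts are among the most abundant of a growing cell. Their promoters are bound by Rap1, Fhl1 and Ifh1, and their transcription follows growth signals through the TOR and protein kinase A pathways.

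The arrays were checked first for their labels. The *SPT3* signal was 288 in WT and 332 in *spt8Δ*, and the *SPT8* signal was 346 in WT and 514 in *spt3Δ*; each was below background in its own deletion strain, at least 43.2-fold (*SPT3*) and 40.2-fold (*SPT8*) lower than in WT. Among mating-type markers in WT, the α cell genes *MF(ALPHA)1*, *MF(ALPHA)2*, *STE3* and *SAG1* had signals of 3727 to 9816 and the 7 **a** cell genes 7.97 to 50.4, the pattern of a *MATα* strain such as BY4742, whereas the strain list of the study gives a *MATa* genotype. Array controls at the 3′ and 5′ ends of *ACT1* had a ratio of 1.32 in WT, 1.15 in *spt3Δ* and 1.16 in *spt8Δ*, so the 3′ excess was largest in WT. The 17 ribosomal RNA controls ranged from −0.99 to 1.45 on the log2 scale in *spt3Δ* and from −0.73 to 0.73 in *spt8Δ* relative to WT.

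Ribosomal protein transcripts had slightly lower signals in both mutants than in WT when the deposited values were used. In WT the 127 genes had a median signal of 10257, compared with 8281 in *spt3Δ* and 8807 in *spt8Δ*. All 127 were above background on all 3 arrays, and together they held 18.4% of the summed signal of all genes in WT, 15.7% in *spt3Δ* and 16.5% in *spt8Δ*. Because the arrays were scaled to nearly equal mean signals, a smaller share of these transcripts in the RNA and fewer of them per cell cannot be told apart. A difference between the arrays that varies with signal was not tested, and ratios by signal level are described below.

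In *spt3Δ*, the log2 ratios to WT had a median of −0.33 (quartiles −0.43 and −0.20, SD over genes 0.23), whereas the median of all genes was 0.15. Of the members, 118 of 127 lay below WT, where 38.8% of all genes did. With a small-change limit of 0.32 on the log2 scale, 65 members were lower (18.5% of all genes) and 4 were higher (37.6% of all genes). In *spt8Δ* the shift was smaller, with a median of −0.21 (quartiles −0.29 and −0.14, SD over genes 0.14) against 0.067 for all genes. There, 119 of 127 members lay below WT (41.1% of all genes), 16 were lower by more than 0.32 (10.8% of all genes) and 1 was higher by that much (19% of all genes). No member passed a limit of 2 SD around the all-gene mean, or a 2-fold change, in either mutant. The 2 SD limits were computed here at −1.26 and 1.47 on the log2 scale in *spt3Δ* and at −0.91 and 1.01 in *spt8Δ*, and are not the fold limits that the study states for its own 2 SD rule. Of all genes, 2.73% were past 2 SD lower and 0.973% higher in *spt3Δ*, and 2.13% lower and 1.63% higher in *spt8Δ*. The corresponding shares at 2-fold were 4.2% and 4.15% in *spt3Δ*, and 1.85% and 1.69% in *spt8Δ*. Thus the members differed from WT by small amounts, mostly in 1 direction. The ratios of all genes, dim ones included, had an SD of 0.68 in *spt3Δ* and 0.48 in *spt8Δ*. Both mutants were compared with the same WT array, so the counts of the 2 comparisons are not independent of each other.

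**Figure D1:**
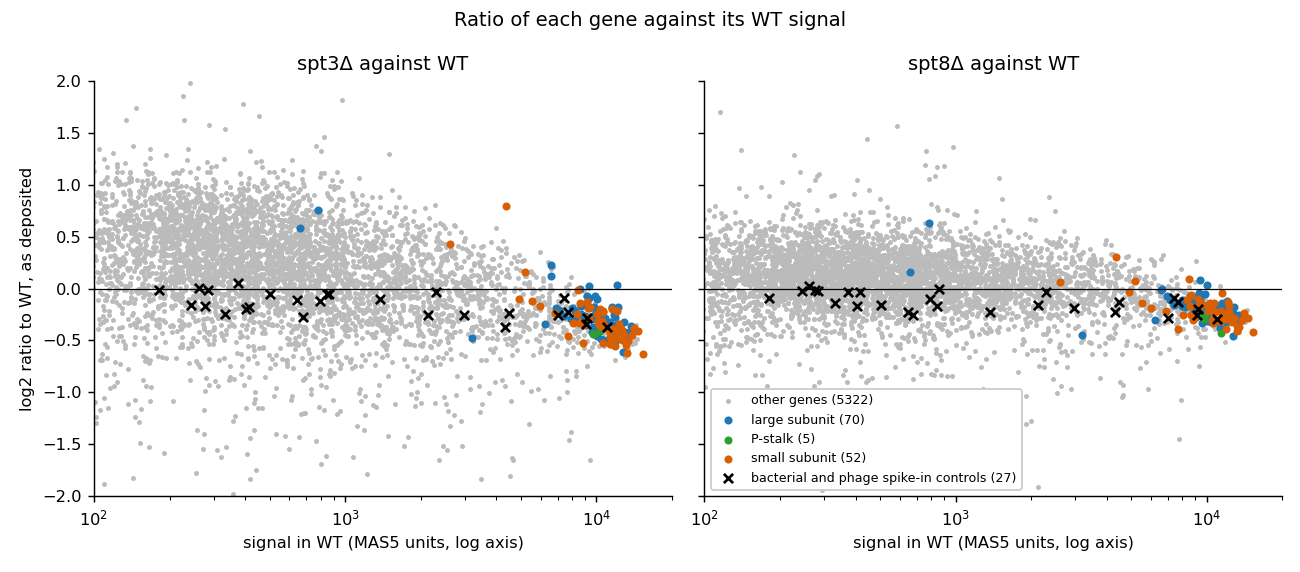
Log2 ratio to WT (y axis, as deposited) against the WT signal (x axis, log scale) for *spt3Δ* (left) and *spt8Δ* (right), 1 point per gene, with 27 spike-in control probe sets as crosses; genes with WT signals under 100 or ratios beyond 2 in either direction lie outside the axes. The ribosomal protein genes sit at the bright end, mostly below 0, beside bright other genes and bright spike-in controls that are also below 0. Quantile or loess normalization, each of which can take up a shift shared by most bright genes, brings the ribosomal protein medians to near 0.

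Signal level moved with these ratios. When other genes were split by mean log2 signal into 10 equal bins, counted from the dimmest, the bin medians in *spt3Δ* were −0.11 in bin 1, highest at 0.36 in bin 3 and lowest at −0.19 in bin 10. Those in *spt8Δ* were 0.0092 in bin 1, highest at 0.12 in bin 6 and lowest at −0.069 in bin 10, so the relation was not steady over the dim bins. A narrower set was chosen after the data were seen, the 58 other genes whose mean signal reached 7980, the lower quartile of the members. Their median ratio was −0.41 for *spt3Δ*, with 57 of 58 below WT, and −0.23 for *spt8Δ*, with 53 of 58 below WT. The 95 members above the same signal had medians of −0.37 and −0.22. In *spt3Δ* these 58 genes ranged from −0.69 to 0.11 and the 95 members from −0.63 to 0.039, so a narrow spread was not particular to the family at this signal. Hence equally bright genes outside the family, such as *ACT1* (actin, −0.53 in *spt3Δ* and −0.33 in *spt8Δ*) and *ADH1* (alcohol dehydrogenase, −0.42 and −0.23), were lower by as much as the ribosomal protein genes. The brightest spike-in controls, 6 probe sets of a phage cre transcript with WT signals of 7037 to 11015, had a median ratio of −0.27 for *spt3Δ* and −0.23 for *spt8Δ*. The dimmest, 9 probe sets of bioB with WT signals of 181 to 415, had medians of −0.16 and −0.031. Between these, bioC (WT signals 504 to 860) had −0.084 and −0.16, and bioD (1370 to 4483) had −0.25 and −0.18. The fall with signal was thus not steady over the spike-in controls in *spt3Δ*. Within the members, the ratio also went down with mean signal (Spearman's rho −0.40 in *spt3Δ* and −0.30 in *spt8Δ* over the 127 genes of the same arrays, given as a description).

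**Figure D2:**
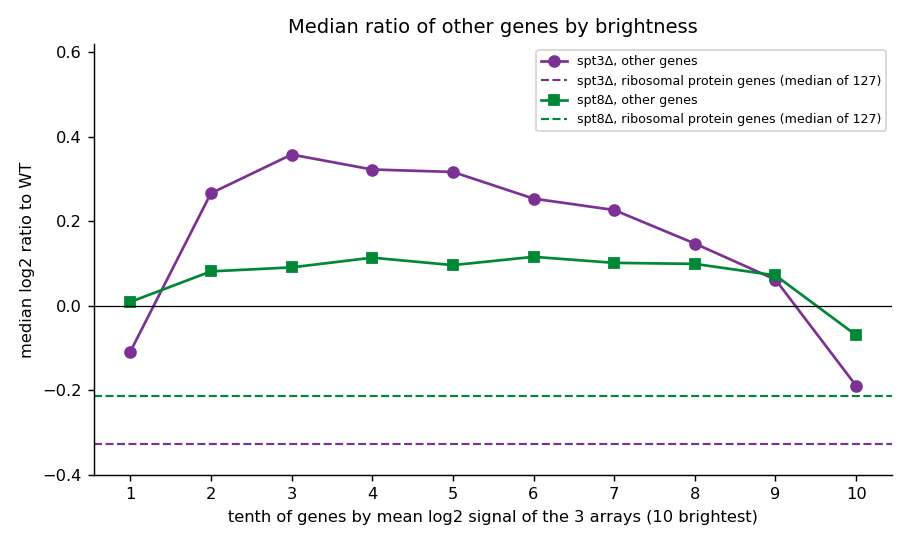
Median log2 ratio to WT (y axis) of the 5322 other genes in 10 bins of mean log2 signal (x axis, bin 10 brightest), with dashed lines at the ribosomal protein medians, as deposited. In bin 10 the median of the other genes is −0.19 for *spt3Δ* and −0.069 for *spt8Δ*, below every other bin, and the dashed lines lie at −0.33 and −0.21, values that go to 0.017 and 0.0091 after quantile normalization.

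The shift of the family as a whole depended on the scaling. After quantile normalization of the 3 arrays, the member median was 0.017 in *spt3Δ*, with 59 members below WT and 66 above (46.6% of all genes below), and 0.0091 in *spt8Δ*, with 57 below and 67 above (47.1% of all genes below). After a loess fit of ratio on signal it was 0.0085 with 62 below and −0.016 with 71 below (50.5% and 50.4% of all genes). The loess curve was fitted to all genes, members included, so both scalings can take up a shift that most bright genes share. These scalings also moved the median of all genes, by −0.12 in *spt3Δ* and −0.050 in *spt8Δ* for quantile normalization and by −0.16 and −0.070 for loess. Relative to the median of all genes, the member median was −0.48 in *spt3Δ* and −0.28 in *spt8Δ* as deposited, −0.019 and −0.0077 after quantile normalization, and 0.014 and −0.014 after loess. At the limit of 0.32, quantile normalization left 1 member lower and 9 higher in *spt3Δ* (21.8% and 26.5% of all genes), and 1 lower and 2 higher in *spt8Δ* (12.4% and 13.7% of all genes). What differed between members, described next, was retained in part under these scalings.

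The lowest ratios in *spt3Δ* were those of *RPS31* and *RPS13* of the small subunit, then *RPL1B* of the large subunit, *RPS2*, *RPS21B* and the P-stalk gene *RPP0*. *RPS31*, which encodes ribosomal protein S31 fused to ubiquitin, had signals of 15308 in WT, 9890 in *spt3Δ* and 11417 in *spt8Δ*, that is a 1.55-fold and a 1.34-fold decrease. *RPS13* had signals of 13194, 8601 and 9946 in the same order, with log2 ratios of −0.62 and −0.41. *RPS2*, whose product lies near the mRNA entry channel, had signals of 11903, 8097 and 9059, with log2 ratios of −0.56 and −0.39. For these genes WT was highest and *spt3Δ* lowest, the order found for most of the family, and their ratios stayed below 0 after quantile normalization, at −0.24, −0.22 and −0.19 in *spt3Δ* and −0.17, −0.16 and −0.13 in *spt8Δ*. *RPS21B* had signals of 13161 in WT, 9053 in *spt3Δ* and 10229.7 in *spt8Δ* (log2 ratios −0.54 and −0.36), and *RPS3*, another mRNA entry protein, had log2 ratios of −0.53 and −0.31.

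Of the large subunit, *RPL1B*, which encodes the protein of the L1 stalk where deacylated tRNA leaves, was lowest. Its probe set also reads *RPL1A*, and its signal went from 12726 in WT to 8351 in *spt3Δ* and 9297 in *spt8Δ*, or 1.52-fold and 1.37-fold lower than in WT. *RPL5*, whose product carries 5S ribosomal RNA, had log2 ratios of −0.51 in *spt3Δ* and −0.31 in *spt8Δ*, and *RPL10*, which encodes a protein added late in subunit maturation, had −0.49 and −0.33. *RPL22B* stood apart from these bright genes, since it was low at a far smaller signal. Its signal was 3187 in WT, against 2291 in *spt3Δ* and 2336 in *spt8Δ*, with log2 ratios of −0.48 and −0.45. After quantile normalization it was the lowest member in both mutants, at −0.44 in each, and loess gave −0.46 and −0.47. It was the only member more than 0.32 below WT after quantile normalization in either mutant.

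**Figure D3:**
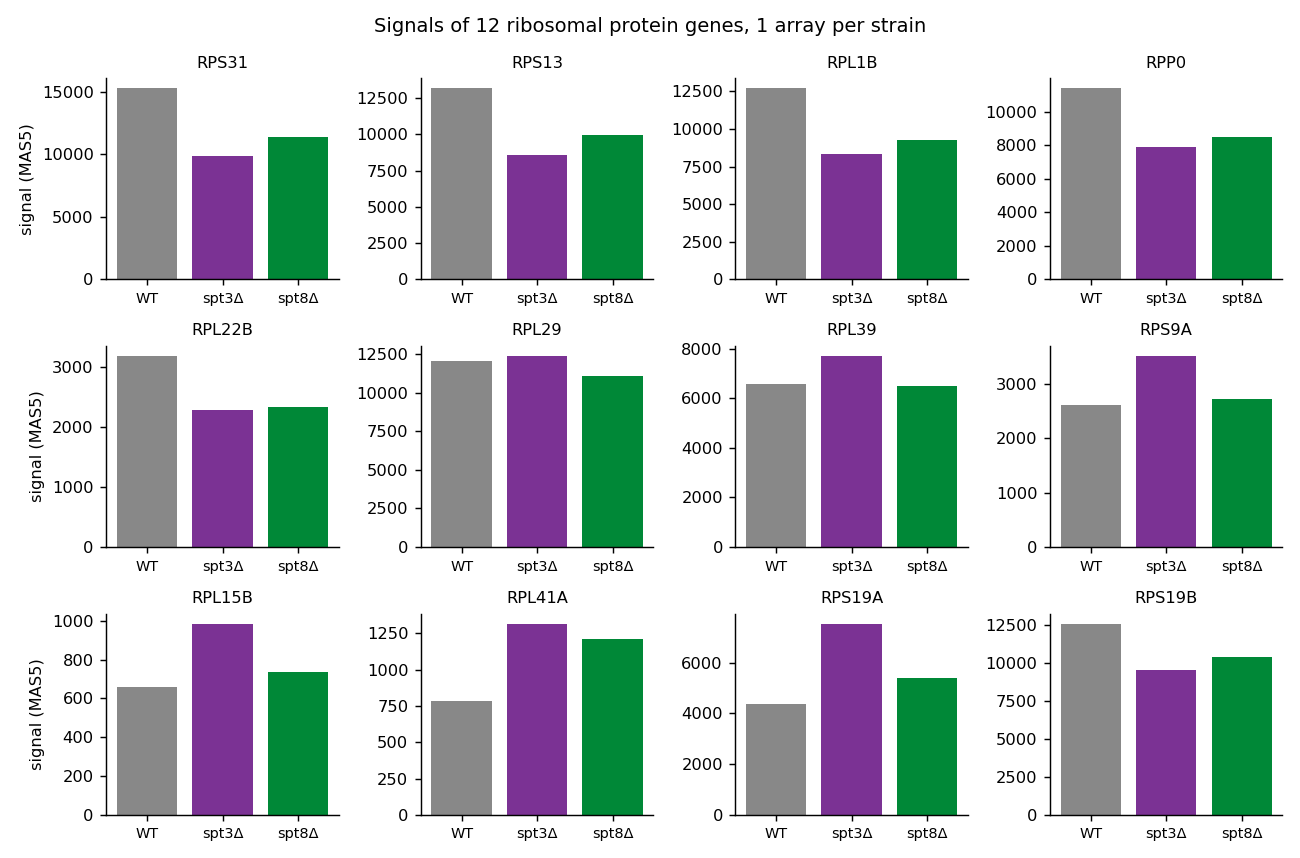
Signals (y axis, MAS5 units, linear from 0) of 12 ribosomal protein genes on the 3 arrays, 1 bar per array, so there is no error bar. WT is the highest bar for *RPS31*, *RPS13*, *RPL1B*, *RPP0*, *RPL22B* and *RPS19B* and the lowest for *RPS9A*, *RPL15B*, *RPL41A* and *RPS19A*, as deposited, whereas after quantile normalization *RPS19B* is at 0.016 in *spt3Δ* on the log2 scale and −0.026 in *spt8Δ*.

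A few members had higher signals in the mutants. *RPS19A*, a copy of the gene for a protein needed for maturation of the small subunit RNA, had signals of 4350 in WT, 7533 in *spt3Δ* and 5385 in *spt8Δ*. It was 1.73-fold higher in *spt3Δ*, the largest increase of the family, and 1.24-fold higher in *spt8Δ*. Its log2 ratio was 0.79 and 0.31 as deposited, 0.99 and 0.36 after quantile normalization and 1.0017 and 0.38 after loess. In *spt3Δ* it thus ranked first among the 127 genes under each of these scalings, and under loess it was the 1 member past 2-fold (2.06% of all genes were higher by that much). *RPL41A*, which encodes the smallest ribosomal protein and shares its probe set with *RPL41B*, had signals of 780 in WT, 1317 in *spt3Δ* and 1212 in *spt8Δ*. These were 1.69-fold and 1.55-fold higher than in WT, so its difference was nearly as large in *spt8Δ* as in *spt3Δ*, and it remained at 0.64 and 0.52 on the log2 scale after quantile normalization.

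*RPL15B* had signals of 660 (WT), 986 (*spt3Δ*) and 736 (*spt8Δ*), and *RPS9A*, a copy of the gene for a protein known for its part in decoding accuracy, had 2608, 3512 and 2717. Both were higher mainly on the *spt3Δ* array, with log2 ratios of 0.58 and 0.43 there and 0.16 and 0.059 in *spt8Δ*. *RPL39*, whose product lines the exit tunnel of the nascent chain, had signals of 6573, 7712 and 6494, with 0.23 in *spt3Δ* and −0.018 in *spt8Δ*. *RPS1A* had signals of 5180 (WT), 5782 (*spt3Δ*) and 5441 (*spt8Δ*), or log2 ratios of 0.16 and 0.071. In *spt8Δ*, *RPS10A* with 8482, 8396 and 9029 and *RPL40B* with 9382, 9559 and 9967 completed the highest members, at 0.090 and 0.087. Without replicate arrays the error of such small differences is unknown.

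The 5 P-stalk genes, which encode the acidic proteins that recruit translation factors to the large subunit, had similar values. *RPP0*, the base of the stalk, had signals of 11410.5 (WT), 7875 (*spt3Δ*) and 8473 (*spt8Δ*). It was the lowest of the group, at log2 ratios of −0.53 and −0.43. *RPP1A* had signals of 10318, 7793 and 8862, *RPP1B* 12054, 8984 and 9987, *RPP2A* 9722, 7171 and 8089, and *RPP2B* 9782, 7245 and 7996. All 5 were lower in both mutants, with medians of −0.43 in *spt3Δ* and −0.27 in *spt8Δ*. After quantile normalization all 5 were still below 0 in *spt3Δ* (median −0.13) and 4 of 5 in *spt8Δ* (median −0.071, *RPP1A* at 0), and after loess all 5 were below 0 in both (medians −0.12 and −0.083).

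Large and small subunit genes differed little. With the P-stalk included, the 75 large subunit genes lay at a median of −0.30 for *spt3Δ* and −0.21 for *spt8Δ*, and the 52 small subunit genes −0.35 and −0.22. The difference, large minus small, was 0.044 in *spt3Δ* and 0.019 in *spt8Δ*, much smaller than the interquartile range within either subunit. Of the large subunit genes, 69 of 75 were below WT in *spt3Δ* and 71 of 75 in *spt8Δ*, and of the small subunit genes 49 of 52 and 48 of 52. After quantile normalization the difference was 0.034 in *spt3Δ* and 0.0099 in *spt8Δ*. Outside the P-stalk, the 17 genes with no paralog had lower medians (−0.42 and −0.26) than the 105 with a paralog (−0.30 and −0.20), and after quantile normalization these were −0.016 and 0.0077 against 0.027 and 0.012. The single-copy genes also had higher WT signals, with a median of 12066 against 9961.

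**Figure D4:**
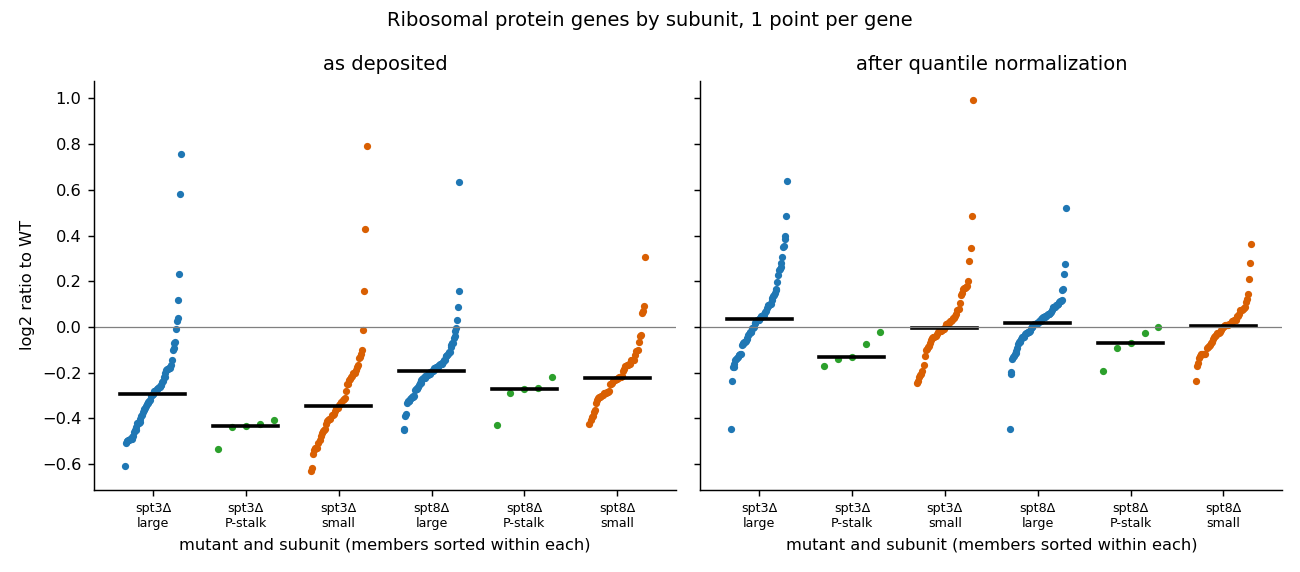
Log2 ratio to WT (y axis) of each ribosomal protein gene, sorted within mutant and subunit (x axis), as deposited (left) and after quantile normalization (right), with a bar at each median. In *spt3Δ* as deposited the medians are −0.29 (large without P-stalk), −0.43 (P-stalk) and −0.35 (small). After quantile normalization the large and small subunit medians lie near 0 while the 5 P-stalk genes are at or below 0.

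Both copies had a probe set for 48 of the 57 paralog pairs, and 30 of these 48 had no probe set shared between genes. *RPL4A* was read only by a shared probe set, and leaving out shared probe sets kept 47 pairs. The A copy had the higher ratio in 27 pairs and the B copy in 21 in *spt3Δ*, with a median A minus B difference of 0.042, and the counts were 25 and 23 in *spt8Δ*, with a median of 0.0045. The median size of the difference was 0.14 in *spt3Δ* and 0.088 in *spt8Δ*, where the interquartile range over all members was 0.23 and 0.14. It was 0.15 and 0.093 in the 30 pairs without shared probe sets. In the 18 pairs with them, where a probe set may read more than 1 gene, it was 0.079 and 0.051. Over all 48 pairs the size of the difference exceeded 0.25 in 8 pairs in *spt3Δ* and 5 in *spt8Δ*. The copy with the lower WT probe signal had the higher ratio in 33 of the 48 pairs in *spt3Δ* and 27 in *spt8Δ*. The same WT signal chose the copy and is the denominator of its ratio, so error in it alone favours such an excess and no conclusion is drawn. Probe signals of different genes are also not a measure of their relative transcript levels.

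*RPS19* had the largest difference. *RPS19B* was lower in the mutants, with signals of 12613 in WT, 9543 in *spt3Δ* and 10377 in *spt8Δ*, opposite to *RPS19A*. The A minus B difference was 1.19 in *spt3Δ* and 0.59 in *spt8Δ*, and it was 0.98 and 0.39 after quantile normalization and 1.02 and 0.44 after loess. One of the probe sets of *RPS19B* is shared between genes, and with shared probe sets left out the difference was 1.09 in *spt3Δ* and 0.49 in *spt8Δ*. The *RPL40* pair, both copies of which encode a fusion to ubiquitin, differed in the other direction. *RPL40A* had signals of 11695 in WT, 8381 in *spt3Δ* and 9413 in *spt8Δ*, while those of *RPL40B* were nearly level. The difference of −0.51 in *spt3Δ* and −0.40 in *spt8Δ* was almost the same after quantile normalization, at −0.50 and −0.34.

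In other pairs the difference was reduced by scaling. *RPL15A* had signals of 9992 in WT, 7620 in *spt3Δ* and 8306 in *spt8Δ*, so the *RPL15* difference was −0.97 and −0.42 as deposited and −0.48 and −0.16 after quantile normalization. *RPS9B* had signals of 11663, 8919 and 9921, and the *RPS9* difference was 0.82 and 0.29 as deposited and 0.47 and 0.018 after quantile normalization. For *RPS14*, a protein of the small subunit platform, *RPS14A* had 12644, 8964 and 10137 and *RPS14B* 5987, 5340 and 5269. Its difference of −0.33 in *spt3Δ* and −0.13 in *spt8Δ* became −0.071 and 0.056, so the sign in *spt8Δ* turned with quantile normalization. *RPL4A* had 11690.5, 8281 and 8913 and *RPL4B* 6934, 6097 and 6600, and the difference of −0.31 and −0.32 was −0.18 and −0.20 after quantile normalization. The only probe set of *RPL4A* is shared between genes, so its value may not be that of the A copy alone. The *RPL22* pair went the other way. *RPL22A* had signals of 10518, 8210 and 9080.01, and the A minus B difference grew from 0.12 in *spt3Δ* and 0.24 in *spt8Δ* to 0.42 and 0.46 after quantile normalization.

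**Figure D5:**
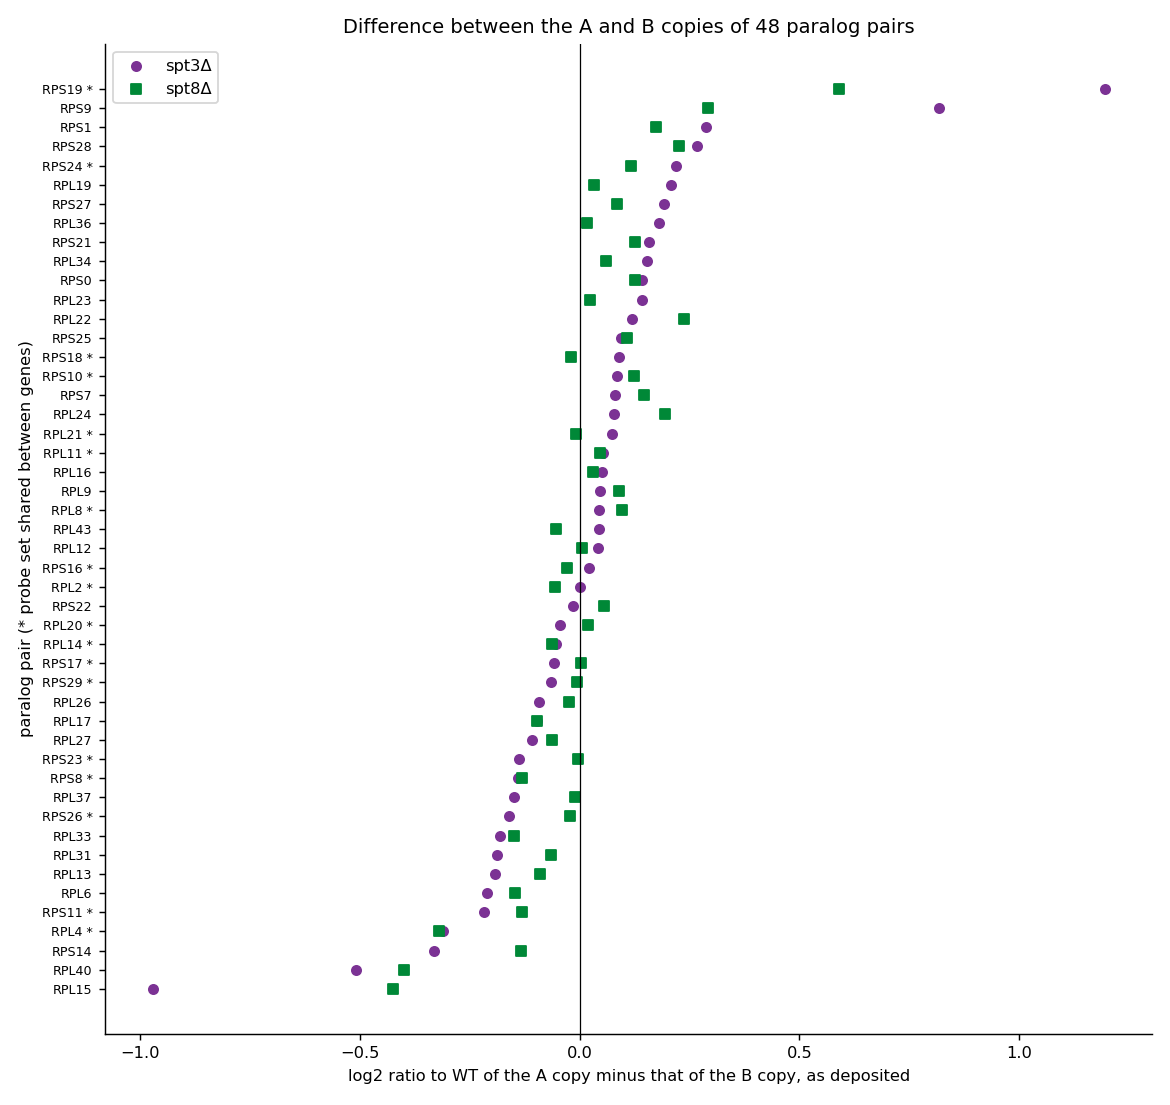
Log2 ratio to WT of the A copy minus that of the B copy (x axis, as deposited) for each of 48 paralog pairs (y axis, sorted by *spt3Δ*), with circles for *spt3Δ*, squares for *spt8Δ* and an asterisk where a probe set is shared between genes. Most pairs lie within 0.25 of 0, and *RPS19* (1.19 and 0.59) and *RPL15* (−0.97 and −0.42) lie farthest out, the latter at −0.48 and −0.16 after quantile normalization.

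Some members were read by more than 1 probe set. Each of these 20 members had a probe set of its own and one that also reads other genes, so the range between them holds signal of other genes and is no measure of technical spread. The median range was 0.15 in *spt3Δ* and 0.13 in *spt8Δ*, and the widest was 0.63 and 0.53. *RPS23A* had −0.11 and −0.066 on its own probe set and −0.60 and −0.39 on a shared one, and *RPS11B* had 0.11 and 0.13 against −0.38 and −0.25. In both the shared probe set was the brighter one and had the lower ratio, and the sign for *RPS11B* differed between its probe sets. The 98 members with only their own probe sets lay at a median of −0.32 for *spt3Δ* and −0.21 for *spt8Δ*, and the 29 with any shared one −0.34 and −0.22.

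The mutants were also compared directly, without the WT array. As deposited, the median log2 ratio of *spt3Δ* to *spt8Δ* was −0.11 over the members and 0.086 over all genes, and 114 of 127 members were lower in *spt3Δ* (41.1% of all genes). Equally bright genes outside the family shifted as well. All 58 other genes with mean signals of 7980 or more were lower in *spt3Δ*, with a median of −0.17. Of the 95 members above the same signal, 91 were lower, with a median of −0.13. None of the 127 members was lower by more than 0.32 and 3 were higher by that much (11.1% and 24.8% of all genes), namely *RPS19A* at 0.48, *RPL15B* at 0.42 and *RPS9A* at 0.37. Ratios to WT of opposite sign in the mutants were found for 5 members, where 20.4% of all genes had them, although the shared WT array enters both ratios. The member median turned to 0.014 after quantile normalization and to 0.018 after loess. *RPL29*, a non-essential large subunit gene with signals of 12066 in WT, 12393 in *spt3Δ* and 11099 in *spt8Δ*, was among the few members higher in *spt3Δ* than in *spt8Δ*, at 0.16.

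Other genes of translation were measured from lists of known factors. Of the regulators of ribosomal protein genes, 19 of 20 were measured, and their medians were 0.34 in *spt3Δ* and 0.16 in *spt8Δ* as deposited and 0.18 and 0.093 after quantile normalization. Of the 19, 15 and 13 were above WT, where 61.2% and 58.9% of all genes were, and none was past 2 SD. *IFH1*, the coactivator bound at these promoters, had signals of 243 in WT, 390 in *spt3Δ* and 320 in *spt8Δ* (log2 ratios 0.68 and 0.40), and *FHL1*, its partner, had 0.46 and 0.21. *RAP1* did not share this, with 0.018 and −0.13. After quantile normalization *IFH1* had 0.40 and 0.30, *FHL1* 0.46 and 0.18, and *RAP1* −0.18 and −0.19. As deposited, *RRP7*, a processing factor found in complex with Ifh1, was highest in *spt3Δ* at 0.87 (0.20 in *spt8Δ*), and *SFP1*, a growth-dependent activator, was lowest there at −0.20 (−0.098 in *spt8Δ*). *CRF1*, the corepressor, was near background at 10.1, 9.07 and 19.8. The TOR and protein kinase A list (21 of 22 measured) had medians of 0.23 and 0.047, which were −0.0055 and −0.030 after quantile normalization. The enzymes that modify ribosomal proteins (12 of 12 measured) had 0.36 and 0.15 (0.20 and 0.11 after quantile normalization), with the lysine methyltransferase gene *RKM3* highest at 0.84 and 0.36.

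Factors that act on the ribosome included both bright genes with lower and dimmer genes with higher signals in the mutants, as deposited. Among chaperones of ribosomal and nascent proteins (20 of 20 measured, medians 0.14 and 0.12, or 0.18 and 0.089 after quantile normalization), the bright *SSB2*, which encodes a ribosome-bound Hsp70, had signals of 11814, 7322 and 8263 (log2 ratios −0.69 and −0.52), and its paralog *SSB1* had −0.48 and −0.31. *ALB1*, a shuttling factor of the pre-large subunit, had signals of 1069, 2027 and 1418 (0.92 and 0.41). Elongation and termination factors (15 of 17 measured) had medians of −0.31 and −0.023 as deposited, which turned to 0.046 and 0.062 after quantile normalization and 0.052 and 0.054 after loess. *TEF2*, for elongation factor 1A, was at −0.66 and −0.40, and stayed below 0 after quantile normalization at −0.29 and −0.15. *ANB1*, the form of eIF5A made at low oxygen, had signals of 1195 in WT, 584 in *spt3Δ* and 1864 in *spt8Δ*, or −1.03 and 0.64, while *HYP2*, its aerobic counterpart, had −0.31 and −0.19, which turned to 0.086 and 0.055 after quantile normalization. *DIA1*, on the same list although known from invasive growth, had −0.86 and 1.09, the latter past 2 SD. Initiation factors (27 of 28 measured) had medians of 0.11 and 0.058 (0.13 and 0.028 after quantile normalization), with the helicase gene *DED1* lowest at −0.52 and −0.27. Ribosome-bound factors (13 of 13 measured) had 0.13 and 0.059, from *TMA46* at 0.99 and 0.35 to *TMA19* at −0.53 and −0.32, apart from *LSO1*, which was near background on all 3 arrays, with signals up to 20.6. *ASC1*, the scaffold protein gene of the small subunit, had signals of 10894, 8196 and 9407 (−0.41 and −0.21), beside ribosomal protein medians of −0.33 and −0.21, and after quantile normalization it was at −0.074 and 0.027. A list of stress-induced genes of the environmental stress response was measured in full (25 of 25). Such genes are known to vary opposite to ribosomal protein genes. The median ratios of the list were −0.67 (*spt3Δ*) and −0.50 (*spt8Δ*) as deposited. These were −0.78 and −0.53 after quantile normalization, where the ribosomal protein medians were 0.017 and 0.0091. Of the 25, 8 and 6 were past 2 SD lower (2.73% and 2.13% of all genes). Both counts include *XBP1*, whose signals of 1.49 in *spt3Δ* and 4.81 in *spt8Δ* were below background. *DDR2* was lowest in *spt3Δ* at −3.81 (−1.49 in *spt8Δ*), and *HSP12* was lowest in *spt8Δ* at −1.68 (−2.49 in *spt3Δ*). Above WT lay 7 and 6 (61.2% and 58.9% of all genes), among them the chaperone genes *HSP42* at 0.88 and 0.83 and *HSP104* at 0.73 and 0.51.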

How the data were processed

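Total RNA of each strain was amplified with a 3′ IVT kit for 1 array. The authors processed the scans with MAS5 (the submitters' processing notes also name Affymetrix Expression Console), and the deposited intensity values are 1 linear, background-corrected signal per probe set, with means trimmed by 2% at each end of 500.3 to 500.4, so the values fix the mean and not the median of an array. Versions of these programs were not used here. Of 10928 probe sets, 7245 had a gene name, 1 with several genes was left out, and 3683 were unnamed. Where a gene had several probe sets their log2 signals were averaged, with no filter and no pseudocount, and log2 ratios to WT were taken. As background, the 95th percentile over 1746 probe sets for *S. pombe* was taken (7.17 in WT, 6.67 in *spt3Δ*, 8.61 in *spt8Δ*). Where a signal was below background, the fold change was given as a bound against background.

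Calls used a limit of 2 SD around the mean over all genes, the kind of rule the study names although the limits computed here are not those it states, a 2-fold change, and a log2 ratio beyond 0.32. With 1 array per strain no test was run. Members are described by counts and medians beside all 5449 genes. Alternatives were quantile and loess (span 0.3) scaling, equal medians, 50 added to each signal, no shared probe sets, the brightest probe set, and genes above background. Pairs and gene order came from the RefSeq R64 gene table. Sequences, introns and promoter motifs were not analysed here. The members (as a family, each gene then taken by name alone) and the lists were chosen with earlier results of these data known. Named were the 6 lowest and 6 highest members and the 6 pairs with the largest differences per mutant, the P-stalk and up to 3 members with discordant probe sets. From the lists only some extremes were named, so the named genes do not give the full range of each list. Other names were picked after their values were seen. Of the members with discordant probe sets, 1 is not reported here. Steps were tested on simulated data and run in Python 3.11.15 with numpy 2.4.6, pandas 2.3.3, scipy 1.17.1 and statsmodels 0.14.6.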

Additional observations from a re-analysis of the deposited data

Results flagged for a closer look

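Of the 127 members, 5 had ratios of opposite sign in the mutants as deposited (20.4% of all genes did), and no difference between the mutants was tested. *RPL19A*, with signals of 6618 in WT, 7178 in *spt3Δ* and 6594 in *spt8Δ*, had a log2 ratio of 0.12 in *spt3Δ* and −0.0052 in *spt8Δ*. *RPL39* had 0.23 and −0.018, and *RPL29* had 0.039 and −0.12. In the other direction, *RPL24A*, with signals of 10044, 9366 and 10264, had −0.10 in *spt3Δ* and 0.031 in *spt8Δ*, and *RPS10A* had −0.015 and 0.090. After quantile normalization these 5 genes were above 0 in both mutants, with *RPL39* at 0.49 and 0.097, *RPL19A* at 0.35 and 0.11, *RPL29* at 0.35 and 0.12, *RPL24A* at 0.25 and 0.23, and *RPS10A* at 0.29 and 0.28, so the opposite signs depended on the scaling. For *RPS10A* they also depended on the probe set, as deposited. Its own probe set had 0.069 in *spt3Δ* and 0.13 in *spt8Δ*, and the one that also reads other genes had −0.099 and 0.049.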

How the results depend on the processing

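The direction of the family as a whole depended on the scaling between arrays. Quantile normalization turned the member median to 0.017 in *spt3Δ*, 0.0091 in *spt8Δ* and 0.014 for *spt3Δ* to *spt8Δ*, and loess gave 0.0085, −0.016 and 0.018. With the median of all genes set equal, the medians were −0.56, −0.31 and −0.24, a setting that moves all genes by −0.24 in *spt3Δ* and −0.097 in *spt8Δ*. The number of members below WT was 59 in *spt3Δ* and 57 in *spt8Δ* after quantile normalization and 62 and 71 after loess. By its construction quantile normalization gives every array the same set of values, and at mean signals of 7980 or more there were 95 members and 58 other genes, so a shift that most of the brightest genes share cannot show after it. The loess curve was fitted to all genes, members included, and can take up such a shift as well. Adding 50 to each signal, leaving out shared probe sets, taking the brightest probe set and keeping genes above background changed no direction of these medians. No member was past 2 SD under any setting tried. Among the 31 named members, quantile normalization changed the sign of 6 in *spt3Δ* and 8 in *spt8Δ*, loess of 5 and 4, and equal medians of 3 and 4. Leaving out shared probe sets changed the sign of 3 and 2 of the 28 that still had a value. No paired analysis was possible because each strain has 1 array and the labels carry no replicate numbers. With 1 array per strain, the spread between cultures and between arrays was not measured.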

Other observations

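The members lay on 15 chromosomes, with 18 on XII, 17 on IV and 14 on VII. The 217 other genes next to a member in the R64 gene order had a median ratio of 0.27 for *spt3Δ* and 0.091 for *spt8Δ*, and 73 and 86 of them were below WT as deposited, that is 33.6% and 39.6%, near the 38.8% and 41.1% of all genes. After quantile normalization the neighbours had medians of 0.12 and 0.050 and the members 0.017 and 0.0091. Some members are neighbours of each other. *RPL24A*, at −0.10 in *spt3Δ* and 0.031 in *spt8Δ*, lies next to *RPL30*, at −0.42 and −0.25, and *RPP2A*, at −0.44 and −0.27, lies next to *RPS15*, at −0.44 and −0.30.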
